A study of Sus scrofa with 16 samples.

Results

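The natriuretic peptides NPPA and NPPB were followed in pig left ventricle as the probe sets whose only gene symbol was NPPA or NPPB. There was 1 such probe set for each gene, which makes 2 of the 6765 genes that the array measured with a named probe set. NPPA encodes the precursor of atrial natriuretic peptide and NPPB that of B-type natriuretic peptide. Cardiomyocytes secrete both hormones when the heart wall is stretched, and through the guanylyl cyclase receptor NPR1 they raise cyclic GMP in kidney and vessels, which promotes sodium excretion and vasodilation. In the adult heart NPPA is chiefly an atrial transcript, and both genes are textbook markers of ventricular load and of the fetal gene programme in heart failure.

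The study set 8 Yorkshire x Landrace pigs with a myocardial infarction (MI) against 8 pigs with a sham operation (Sham), sampled 3 weeks after surgery. The animals were 2 to 3 months old, and by the labels each group had 4 females and 4 males, the males neutered. Each animal contributed 1 Affymetrix array of total RNA from crushed left ventricle. The labels name no infarct site, infarct size or distance of the tissue from the scar, and they name no genetic change or drug in either group.

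Values are the deposited log2 signals. All arrays had the same median signal of 6.24, and the brightest reading among 23 control probe sets without target RNA was 4.99, which is taken here as background. Every reading of NPPA and NPPB lay above it. Of 12 listed markers of ventricular cardiomyocytes 10 were measured, and MYL2, the regulatory myosin light chain of ventricle, read 14.62 ± 0.04 (SD, n = 8) in MI and 14.62 ± 0.05 (SD, n = 8) in Sham. Features of the arrays that bear on the peptides come before their values. Poly-A spike-in controls separate the arrays into a set A of 11 and a set B of 5, the latter being MI 7, MI 8, Sham 6, Sham 7 and Sham 8. The excess of the 3′ over the 5′ actin probe sets, a measure of RNA or cDNA integrity, ran from 2.21 to 3.04 in set A and from 1.21 to 1.54 in set B. MI 7, labelled female, read 9.51 at the Y-linked EIF1AY, where the 8 labelled males read 9.40 to 9.96 and the other 7 labelled females 3.00 to 3.51. Sex below is that of the labels, and the differences by sex are also given without MI 7.

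NPPA and NPPB lie next to each other on chromosome 6 of the pig assembly Sscrofa11.1, in the order CLCN6, NPPA, NPPB, KIAA2013, PLOD1, MFN2. Their Entrez identifiers are 397496 for NPPA and 396844 for NPPB.

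The difference of NPPA between MI and Sham was smaller than the spread of the animals and did not pass the test. The lowest, median and highest signals were 8.16, 8.64 and 9.01 in MI and 7.85, 8.80 and 9.69 in Sham. All 8 MI animals lay inside the Sham range, while 3 Sham animals (Sham 2, Sham 3 and Sham 4) lay above every MI animal and Sham 1 lay below them all. NPPA averaged 8.60 ± 0.33 (SD, n = 8) in MI and 8.91 ± 0.64 (SD, n = 8) in Sham. The 95% interval of the difference of -0.30 ran from -0.81 to 0.20 on the log2 scale (limma, adjusted p = 0.496). In the same comparison 10.5% of the 23999 probe sets passed, and neither peptide was among them.

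Within the sexes NPPA showed the same overlap. Among the females it read 8.34, 8.63, 9.001 and 9.01 in MI 1, MI 2, MI 7 and MI 8, and 7.85, 9.69, 8.94 and 8.67 in Sham 1, Sham 3, Sham 5 and Sham 7. All 4 MI females fell inside the Sham female range, which was the widest of the 4 groups of animals formed by operation and sex. Among the males it read 8.81, 8.21, 8.16 and 8.66 in MI 3 to MI 6, and 9.57, 9.46, 8.62 and 8.45 in Sham 2, Sham 4, Sham 6 and Sham 8. The Sham males thus held both high and intermediate animals, and no MI male lay above all Sham males. The MI minus Sham difference was -0.04 (SE 0.34) in females (limma, adjusted p = 0.972) and -0.56 (SE 0.34) in males (adjusted p = 0.376). Without MI 7 the differences were -0.13 in females and -0.56 in males, and with a term for spike-in set added they were -0.10 and -0.72.

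NPPB was higher on average in MI than in Sham, but the difference did not pass the test. The lowest, median and highest NPPB signals were 7.005, 8.56 and 10.44 in MI and 6.11, 7.79 and 9.38 in Sham. MI 3 and MI 5 lay above all Sham animals, the other 6 MI animals lay within the Sham range, and Sham 8 lay below every MI animal. NPPB averaged 8.61 ± 1.20 (SD, n = 8) in MI and 7.79 ± 0.995 (SD, n = 8) in Sham. Its difference of 0.82, or 1.76-fold, had a 95% interval from -0.08 to 1.72 (limma, adjusted p = 0.259), and an exact two-sided permutation test gave p = 0.162 (adjusted p = 0.386 over the 18 comparisons of the peptides tested in this way). In whole tissue a change in the number of expressing cells and a change in RNA per cell cannot be told apart.

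The male animals held the highest and the lowest NPPB signals of the series. In the 4 MI males NPPB read 9.95, 9.02, 10.44 and 7.98 in MI 3 to MI 6, and in the 4 Sham males 7.77, 8.29, 7.07 and 6.11 in Sham 2, Sham 4, Sham 6 and Sham 8. MI 3, MI 4 and MI 5 lay above all Sham males, and MI 6 lay below Sham 4. The male means were 9.35 ± 1.08 (SD, n = 4) in MI and 7.31 ± 0.95 (SD, n = 4) in Sham, a difference of 2.04 (SE 0.60, 4.11-fold). It did not pass over all probe sets (limma, adjusted p = 0.0745; 0.0807 without MI 7), a comparison in which 3.4% of probe sets passed. An exact two-sided permutation test over the 8 males gave p = 0.0571, where the smallest value the design can reach is 0.0286, and the adjusted p over the 18 comparisons was 0.321.

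In the females NPPB overlapped and the mean was lower in MI. NPPB read 7.005, 8.25, 7.35 and 8.87 in MI 1, MI 2, MI 7 and MI 8, and 7.80, 9.38, 8.57 and 7.33 in Sham 1, Sham 3, Sham 5 and Sham 7. All but MI 1 fell inside the range of the Sham females. The difference was -0.40 (SE 0.60; limma, adjusted p = 0.818), against a share of 2.85% of probe sets that passed in females. Without MI 7 it was -0.23, and with a term for spike-in set added -0.18.

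The MI minus Sham difference of NPPB in females minus that in males was -2.44 (SE 0.84), with a 95% interval from -4.24 to -0.65. It did not pass over all probe sets (limma, adjusted p = 0.794), and 0% of them passed, although 1363 of 23999 had an unadjusted p under 0.05. The same quantity for NPPA was 0.52 (SE 0.47; limma, adjusted p = 0.825). Without MI 7 it was -2.27 for NPPB and 0.44 for NPPA, and with a term for spike-in set added -1.89 and 0.62. Between females and males of the same group the difference in NPPB was -1.48 in MI (limma, adjusted p = 0.834) and 0.96 in Sham (adjusted p = 1.0), comparisons in which 0% (1189 at an unadjusted p under 0.05) and 0.0542% of probe sets passed. Over both groups female minus male was -0.26 for NPPB and 0.02 for NPPA (limma, adjusted p = 0.998 for both), and 0.0583% of probe sets passed. Without MI 7 female minus male was -1.31 for NPPB in MI, and over both groups -0.17 for NPPB and -0.020 for NPPA, where the sign turned (limma, adjusted p = 1.0 in each).

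**Figure D1:**
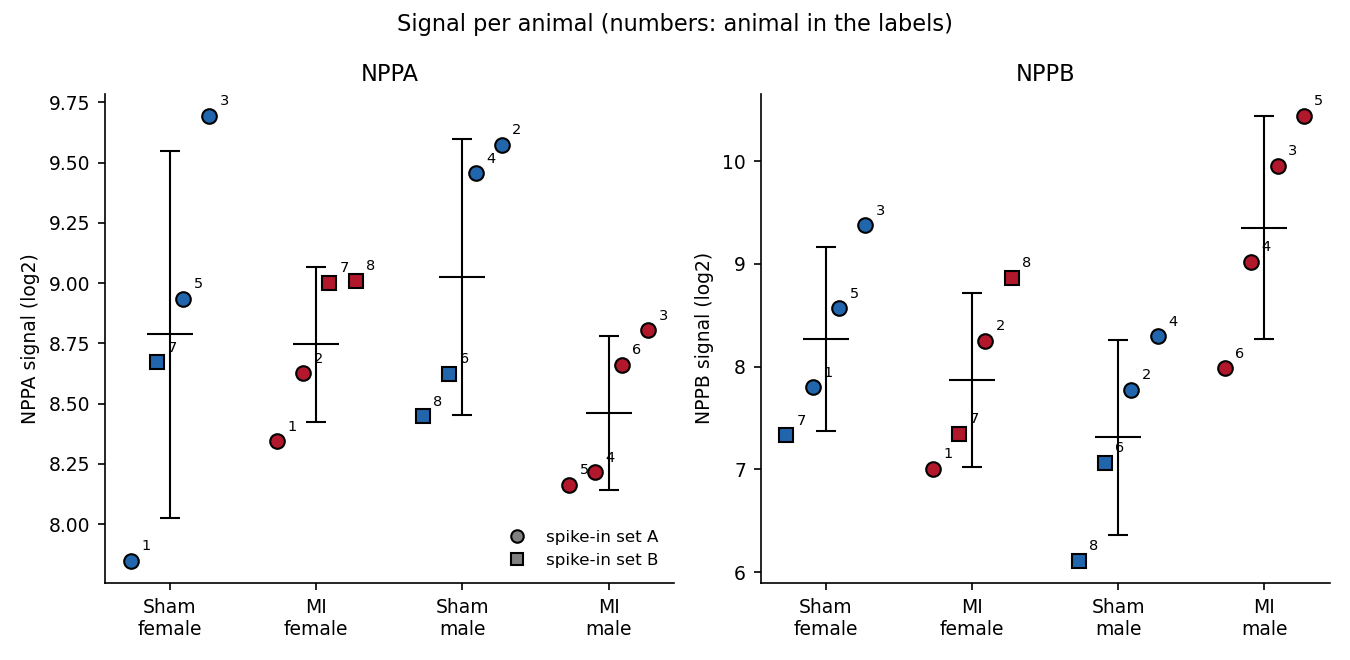
NPPA (left) and NPPB (right) log2 signal of each animal, by operation and labelled sex; small numbers are the animal numbers, circles are spike-in set A, squares are set B, and black marks are the mean and SD of 4 animals. NPPA overlaps between MI (red) and Sham (blue) in both sexes, while 3 of the 4 MI males lie above all Sham males for NPPB and the Sham animals of set B lie lowest among Sham animals.

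NPPB also differed between the spike-in sets among Sham animals, before adjustment. In Sham animals NPPB averaged 6.84 ± 0.64 (SD, n = 3) in set B and 8.36 ± 0.66 (SD, n = 5) in set A, and all 3 set B animals lay below all 5 set A animals. In an earlier analysis of these data the sets were the largest source of variance. How many other probe sets separate by set was not counted, so the separation is not shown to be particular to NPPB. The NPPB difference of -1.53 had an exact permutation p of 0.0357, the smallest this split allows, and an adjusted p of 0.321 over the 18 comparisons. In MI the set B animals read 7.35 and 8.87, inside the set A range of 7.005 to 10.44. For NPPA set B minus set A was -0.52 in Sham and 0.54 in MI (exact permutation p = 0.250 and 0.0714, the latter the smallest that split allows).

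The spike-in sets were uneven across the males, with all 4 MI males in set A and Sham 6 and Sham 8 in set B. Within set A the MI minus Sham difference of NPPB was 0.18 over both sexes (limma, adjusted p = 0.844) and 1.32 in males (adjusted p = 0.333), where 4 MI males stood against Sham 2 and Sham 4. With a term for the set the values were 0.73 (adjusted p = 0.279) and 1.69 (adjusted p = 0.180). For NPPA the difference within set A was -0.70 (limma, adjusted p = 0.148) and -1.05 in males (adjusted p = 0.205).

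The actin 3′ minus 5′ value, which does not overlap between the sets, was set against the peptides after centring on the group means. Over all 16 animals, in which the sets form separate clusters of this value, NPPB had r = 0.55 and rho = 0.56 (permutation p = 0.0302 and 0.0282, adjusted p = 0.241 and 0.226 over 8 relations), and r was 0.40 without Sham 6 and Sham 8, the animals farthest from its median. For NPPA r was -0.01 and rho 0.06 over all animals (permutation p = 0.961 and 0.813, adjusted p = 0.961 and 0.929), and r was -0.25 without those animals. Within set A r was 0.25 for NPPB and rho 0.24 (n = 11, permutation p = 0.465 and 0.487, adjusted p = 0.883 and 0.929), and r was 0.42 without MI 2 and Sham 3, the animals farthest from its median. For NPPA within set A r was -0.23 and rho -0.17 (permutation p = 0.523 and 0.616, adjusted p = 0.883 and 0.929), and r was -0.018 without MI 2 and Sham 3. The part of the spike-in set and of RNA integrity in the NPPB values was not tested beyond these comparisons.

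**Figure D2:**
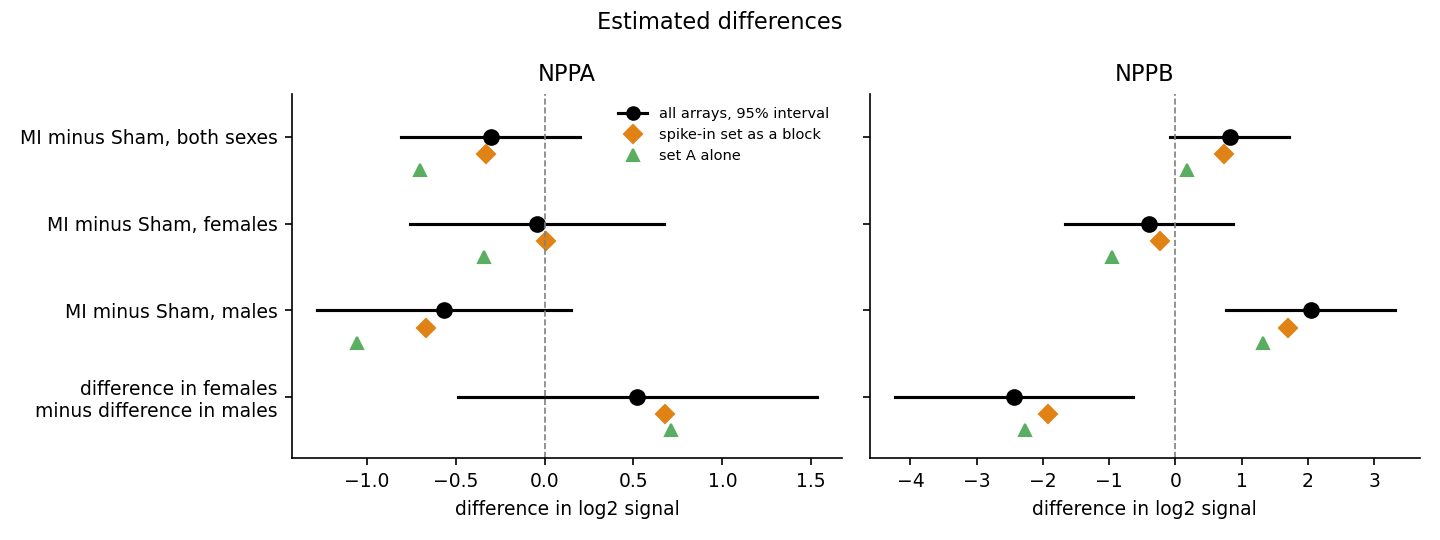
Estimated log2 differences of NPPA (left) and NPPB (right): MI minus Sham over both sexes, in females and in males, and the difference in females minus that in males. Black points and lines are the estimate and its 95% interval over all arrays, orange diamonds the estimate with a term for spike-in set, green triangles that in set A alone; NPPB in males goes from 2.04 to 1.69 and 1.32.

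Both peptides were among the most variable transcripts within groups. The residual SD between animals of the same operation and sex was 0.528 for NPPA, larger than that of 96.6% of the probe sets tested, and 0.948 for NPPB, larger than that of 99.6%. The median over all probe sets was 0.193. No animal stood apart from its group in either peptide by Dixon's criterion at 95%, which was applied to the 8 animals of each operation and to the 4 of each sex within it.

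Across animals none of the 4 relations tested between the peptides passed. After centring on the group means, NPPA and NPPB correlated with r = 0.24 and rho = 0.27 over the 16 animals (permutation p = 0.368 and 0.308, adjusted p = 0.657 and 0.617 over 4 relations). Without Sham 2 and Sham 3, the animals farthest from the median of NPPA, r was 0.05. Within Sham r was 0.59 and rho 0.62 (n = 8, exact permutation p = 0.124 and 0.115, adjusted p = 0.497 and 0.460), and 0.69 without Sham 1 and Sham 3. Within MI r was -0.26 and rho -0.29 (n = 8, exact permutation p = 0.526 and 0.501, adjusted p = 0.657 and 0.668), and it was 0.41 without MI 4 and MI 5, so its sign rests on those animals. Within set A r was 0.15 and rho -0.05 (n = 11, permutation p = 0.657 and 0.881, adjusted p = 0.657 and 0.881), and r was 0.08 without Sham 2 and Sham 3. MI 5 had the highest NPPB of the series and the lowest NPPA of the MI animals, whereas Sham 3 had the highest NPPA of the series and the highest NPPB of the Sham animals.

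After centring on operation, sex and spike-in set together, r was 0.51 (permutation p = 0.0451, unadjusted). The permutation made no allowance for the terms that the centring removed. That p is therefore too small, and no conclusion is drawn from it. In the fit across all probe sets, with operation, sex and set as terms, NPPB had a slope of 0.87 (SE 0.40) per log2 unit of NPPA (limma, adjusted p = 0.452) and ranked 2630 of 23998 probe sets by p.

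**Figure D3:**
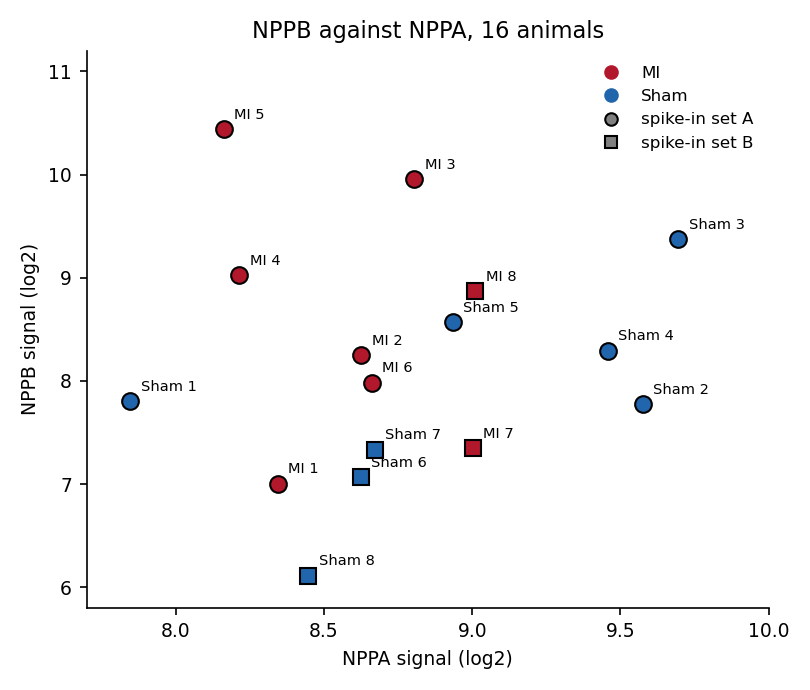
NPPB against NPPA log2 signal in the 16 animals, red for MI and blue for Sham, circles for spike-in set A and squares for set B. Within Sham r was 0.59 and within MI -0.26, neither of which passed a test, and the MI value turned to 0.41 without MI 4 and MI 5; the highest NPPB values are those of MI 5 and MI 3.

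The transcripts that followed each peptide were sought by fitting its level as a covariate for every other probe set, with operation, sex and spike-in set as terms. A slope is the log2 change of a transcript for each log2 unit of the peptide. With NPPA 0% of the 23998 probe sets passed (limma, lowest adjusted p = 0.248), and 2641 had an unadjusted p under 0.05, of which 1280 had positive and 1361 negative slopes. With NPPB 0% passed (limma, lowest adjusted p = 1.0), and 973 had an unadjusted p under 0.05, of which 500 were positive and 473 negative. The 12 genes of lowest p in each direction are therefore described by their values only.

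The gene nearest to NPPA in the same direction was RRAD, a small GTPase that restrains L-type calcium channels, with a slope of 0.82 (SE 0.15; limma, adjusted p = 0.248). RRAD read from 11.11 to 12.81 in MI and from 10.77 to 12.24 in Sham. Its lowest value was in Sham 1, the animal with the lowest NPPA, and its highest in MI 7. RRAD had a slope of 0.09 on NPPB.

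After RRAD came COPG1, a coat protein of Golgi vesicles (slope 0.41), PHLDB1 (0.41), SPTAN1, the alpha chain of spectrin (0.31), SLC45A2 (0.42), NUMA1, a spindle pole protein (0.37), and POLD2, a subunit of DNA polymerase delta (0.34). The others were TSC2 (0.31), a brake on mTORC1, FBXO11 (0.25), KDM2A (0.26), a histone demethylase, IGFBP5 (0.52), which binds insulin-like growth factors, and STK11 (0.35), the kinase LKB1. Of these 12 genes POLD2 and IGFBP5 also had an unadjusted p under 0.05 on NPPB, with slopes of 0.14 and 0.24. Over all probe sets 4.05% had such a p on NPPB. None of the 12 passed in MI minus Sham.

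In the opposite direction the gene nearest to NPPA was SLC35A3, which carries UDP-N-acetylglucosamine into the Golgi, with a slope of -0.42 (SE 0.08; limma, adjusted p = 0.248). SLC35A3 read from 5.31 to 6.25 in MI and from 5.23 to 6.12 in Sham, lowest in Sham 3, the animal with the highest NPPA. It was highest in MI 5, where NPPA read 8.16. The next were SUV39H2 (-0.37), a histone methyltransferase, MBD2 (-0.33), which binds methylated DNA, UFM1 (-0.42), CLP1 (-0.51), IKBIP (-0.43) and CALCRL (-0.45), the receptor for adrenomedullin and CGRP. NPTN (-0.32), CRLF3 (-0.44), ADAM10 (-0.39), a membrane sheddase, SLC30A5 (-0.36), a zinc transporter, and GPR1 (-0.56) completed the 12. CALCRL ranged from 5.10 to 6.93 in MI and from 4.62 to 6.64 in Sham, with a slope of -0.15 on NPPB. SUV39H2 and ADAM10 also had an unadjusted p under 0.05 on NPPB (limma), with slopes of -0.15 and -0.18, where 4.05% of all probe sets had such a p.

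With NPPB the nearest gene in the same direction was DKK3, a secreted glycoprotein of the Dickkopf family, with a slope of 0.45 (SE 0.09; limma, adjusted p = 1.0). DKK3 read from 8.55 to 9.68 in MI and from 8.37 to 9.82 in Sham, and was lowest in Sham 8, the animal with the lowest NPPB. Its highest value was in Sham 4, where NPPB read 8.29, and in MI 5, which had the highest NPPB, it read 9.47. It is also on the list of atrial markers, and its slope on NPPA was 0.57. The mean of DKK3 was 9.07 ± 0.38 (SD, n = 8) in MI and 9.08 ± 0.52 (SD, n = 8) in Sham.

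The other genes near NPPB in the same direction were SNAP91 (0.20), BCAS4 (0.17), CLASRP (0.21), VPS37B (0.15), ABLIM1 (0.19), an actin-binding LIM protein, EPHX2 (0.30), the soluble epoxide hydrolase, NT5C2 (0.11), CRISPLD2 (0.41), ODC1 (0.19), the first enzyme of polyamine synthesis, PRR15 (0.24) and ASL (0.20), an enzyme of the urea cycle. EPHX2 and ODC1 were also higher in MI than in Sham, by 0.68 and 0.54 (limma, adjusted p = 0.0186 and 0.00775). Over all probe sets 5.39% were higher in MI at the same threshold. Whether genes near NPPB were called more often than that share was not tested. EPHX2 read from 8.44 to 9.88 in MI and from 7.72 to 8.68 in Sham, and ODC1 from 8.72 to 9.55 in MI and from 8.31 to 9.09 in Sham, so both overlapped. Of the 12 genes, 6 also had an unadjusted p under 0.05 on NPPA (limma), all with positive slopes. They were DKK3 (0.57), CLASRP (0.30), VPS37B (0.24), ABLIM1 (0.32), NT5C2 (0.15) and ASL (0.28). Such a p on NPPA was found for 11% of all probe sets.

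In the opposite direction to NPPB stood FMO1, a flavin-containing monooxygenase, with a slope of -0.37 (SE 0.08; limma, adjusted p = 1.0). FMO1 read from 9.51 to 11.10 in MI and from 9.67 to 10.61 in Sham, lowest in MI 5, which had the highest NPPB, and highest in MI 1, which had the lowest NPPB among MI animals. The others were STRADB (-0.18), CD2 (-0.27), a T cell surface protein, ATG4C (-0.25), an autophagy protease, LOC100512926 (-0.17), TM2D2 (-0.14), RXRA (-0.11), a retinoid X receptor, APOD (-0.37), BMPR1B (-0.33), a BMP receptor, CLEC3B (-0.30), ECHDC2 (-0.20) and PTGES3 (-0.15), a co-chaperone of HSP90. None of these 12 passed in MI minus Sham. ATG4C and BMPR1B also had an unadjusted p under 0.05 on NPPA (limma), with slopes of -0.37 and -0.44, where 11% of all probe sets had such a p.

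Several of the 48 slopes depended on the term for spike-in set. Without it 8 of the 24 slopes on NPPA and 6 of the 24 on NPPB moved by over 1.5 times. KDM2A went from 0.26 to 0.09, CALCRL from -0.45 to -0.22, ADAM10 from -0.39 to -0.20 and SLC30A5 from -0.36 to -0.24, and SPTAN1, NUMA1, TSC2 and IGFBP5 to 0.18, 0.22, 0.19 and 0.33. On NPPB CLASRP went to 0.07, VPS37B to 0.06, ABLIM1 to 0.11, ASL to 0.10, ATG4C to -0.11 and LOC100512926 to -0.09. Within set A alone 8 of the 48 moved as far, among them EPHX2 to 0.12 and PRR15 to 0.05. Without MI 6 ODC1 was at 0.11, and without MI 8 BCAS4 and PRR15 were at 0.11 and 0.13, while without MI 7 no slope moved by over 1.5 times.

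**Figure D4:**
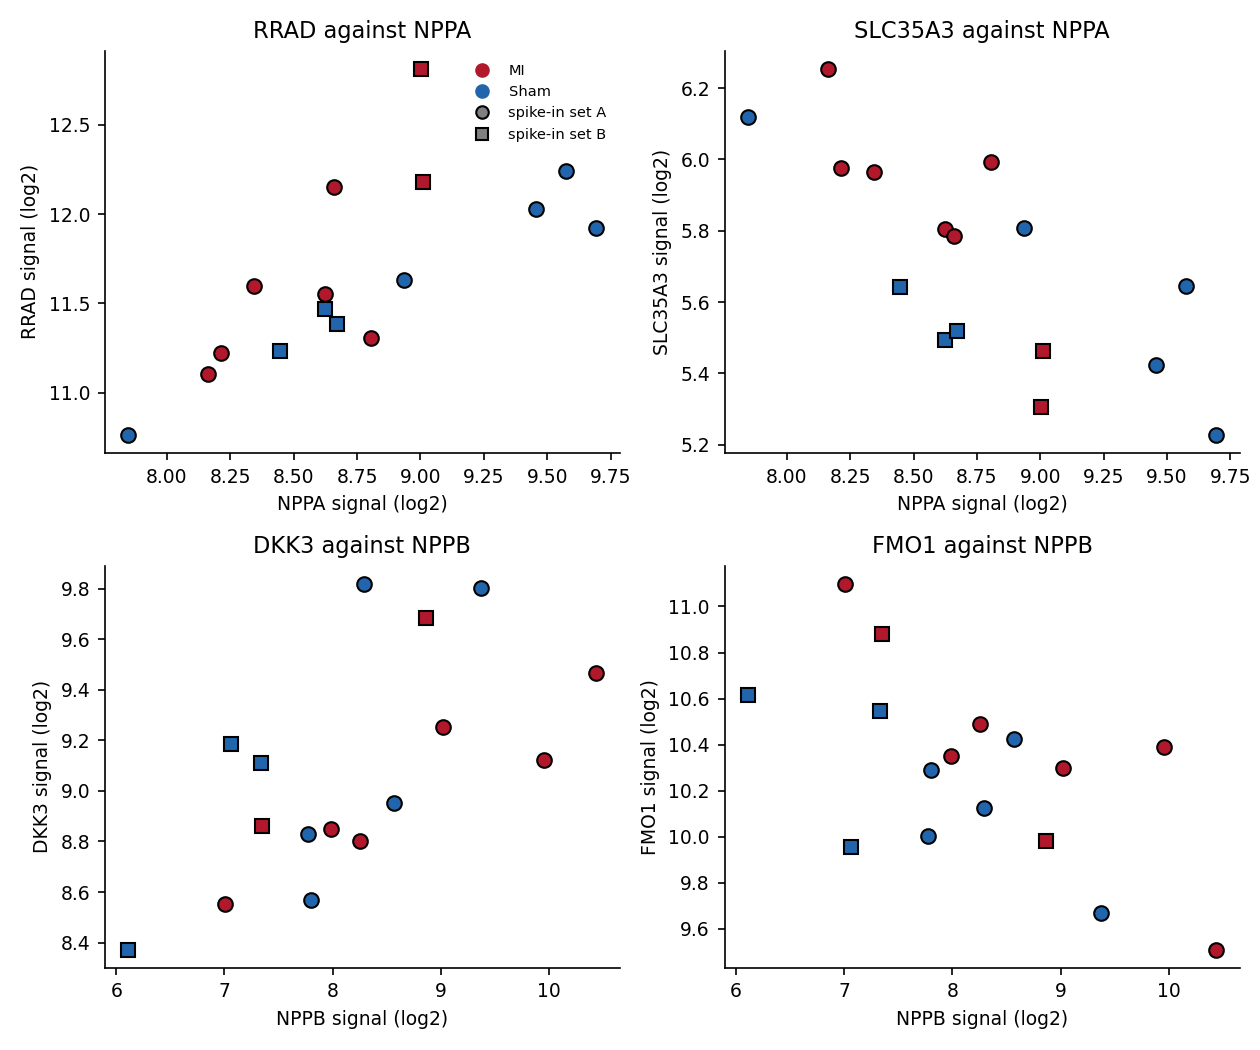
Log2 signal of the gene of lowest p in each direction against the peptide it was ranked on, in 16 animals: RRAD and SLC35A3 against NPPA, DKK3 and FMO1 against NPPB; red for MI, blue for Sham, circles for spike-in set A, squares for set B. The points show raw signals, while the slopes of 0.82, -0.42, 0.45 and -0.37 come from fits with operation, sex and set as terms.

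Genes that make, cleave and clear the peptides were measured in part, 3 of a list of 9. None passed in MI minus Sham (limma), and none had an unadjusted p under 0.05, which 23.6% of all probe sets had. DPP4, a peptidase that trims B-type natriuretic peptide, differed by -0.41 (adjusted p = 0.405), IDE, the insulin-degrading enzyme, which also cleaves atrial natriuretic peptide, by 0.09 (adjusted p = 0.493), and PAM, a peptide-amidating enzyme abundant in heart secretory granules, by 0.12 (adjusted p = 0.576). DPP4 read from 8.47 to 10.61 in MI and from 9.94 to 10.66 in Sham, with its lowest value in MI 5. IDE had a slope of 0.17 on NPPA and 0.05 on NPPB. CORIN and FURIN, proteases that cleave the precursors, and the clearance receptor NPR3 were not analysed here.

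Of receptors and cyclic GMP signalling 8 of 16 genes were measured, and none passed in MI minus Sham (limma) or had an unadjusted p under 0.05. The median difference was -0.08, beside a median of -0.00035 over all probe sets. RGS2, a regulator of G protein signalling that cyclic GMP-dependent kinase activates, differed by 0.46 (adjusted p = 0.293) and read from 7.55 to 9.48 in MI and from 7.82 to 8.71 in Sham. PDE5A and PDE9A, phosphodiesterases that degrade cyclic GMP, differed by -0.15 and -0.17 (adjusted p = 0.278 and 0.441), PDE5A reading below background throughout. NPR2, the receptor of C-type natriuretic peptide, read 7.62 ± 0.32 (SD, n = 8) in MI and 7.74 ± 0.18 (SD, n = 8) in Sham, and had a slope of 0.22 on NPPA (limma, adjusted p = 0.333). NPR1 was not analysed here.

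Of 28 transcription factors known to act on the NPPA or NPPB promoter 16 were measured, and NFATC1 and MEF2A fell in MI while none rose (limma). Over all probe sets 5.14% fell and 5.39% rose. NFATC1, a calcineurin-dependent factor, read 4.70 ± 0.19 (SD, n = 8) in MI and 5.15 ± 0.13 (SD, n = 8) in Sham, a difference of -0.45 (SE 0.09; limma, adjusted p = 0.00356). The highest MI value of NFATC1 was 4.96 and the lowest Sham value 4.95, and 7 of 8 MI animals lay below all Sham animals, and every MI value lay below the background reading of 4.99. MEF2A, a MADS-box factor, differed by -0.30 (SE 0.08; limma, adjusted p = 0.0341), with 9.53 to 9.94 in MI and 9.75 to 10.27 in Sham. The MEF2A call was lost on leaving out any 1 of MI 1, MI 2, MI 3, MI 5, MI 6, MI 7 and Sham 1 to Sham 6 (limma, adjusted p up to 0.0699).

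The factors that fell had slopes of -0.01 (NFATC1) and 0.09 (MEF2A) on NPPA, and of 0.04 and 0.08 on NPPB. None of the 16 factors passed on either peptide (limma). On NPPA 4 had a positive slope at an unadjusted p under 0.05, namely GATA4 (0.37), HEY2 (0.39), TEAD1 (0.28) and MYOCD (0.25). On NPPB none had. Over all 23998 probe sets 1280 had such a slope on NPPA and 500 on NPPB. GATA4, a zinc finger factor of cardiomyocytes, read from 7.98 to 9.50 in MI and from 8.16 to 9.35 in Sham. Among these factors the immediate early FOS and ATF3 had the widest ranges, FOS reading from 6.27 to 12.35 in MI and from 6.37 to 11.08 in Sham. JUN and MEF2D, the next by p, differed by -0.33 and 0.12 (limma, adjusted p = 0.449 and 0.467).

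Of 14 genes around the locus 7 were measured, and FBXO2, which encodes a substrate-binding subunit of a ubiquitin ligase, fell in MI (limma), where 5.14% of all probe sets fell. FBXO2 read from 4.86 to 5.26 in MI and from 5.28 to 5.71 in Sham, ranges that only just stayed apart. The difference was -0.34 (SE 0.08, limma, adjusted p = 0.0136). The share of all probe sets whose groups stayed apart was not counted. These signals lie near background, and within set A alone the adjusted p was 0.0777. PLOD1, a collagen lysyl hydroxylase and the nearest measured neighbour of NPPB, differed by -0.14 (limma, adjusted p = 0.655). FBXO6 differed by -0.15 (adjusted p = 0.357) and AGTRAP by 0.07 (adjusted p = 0.667). None of the 7 passed on NPPA or NPPB.

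**Figure D5:**
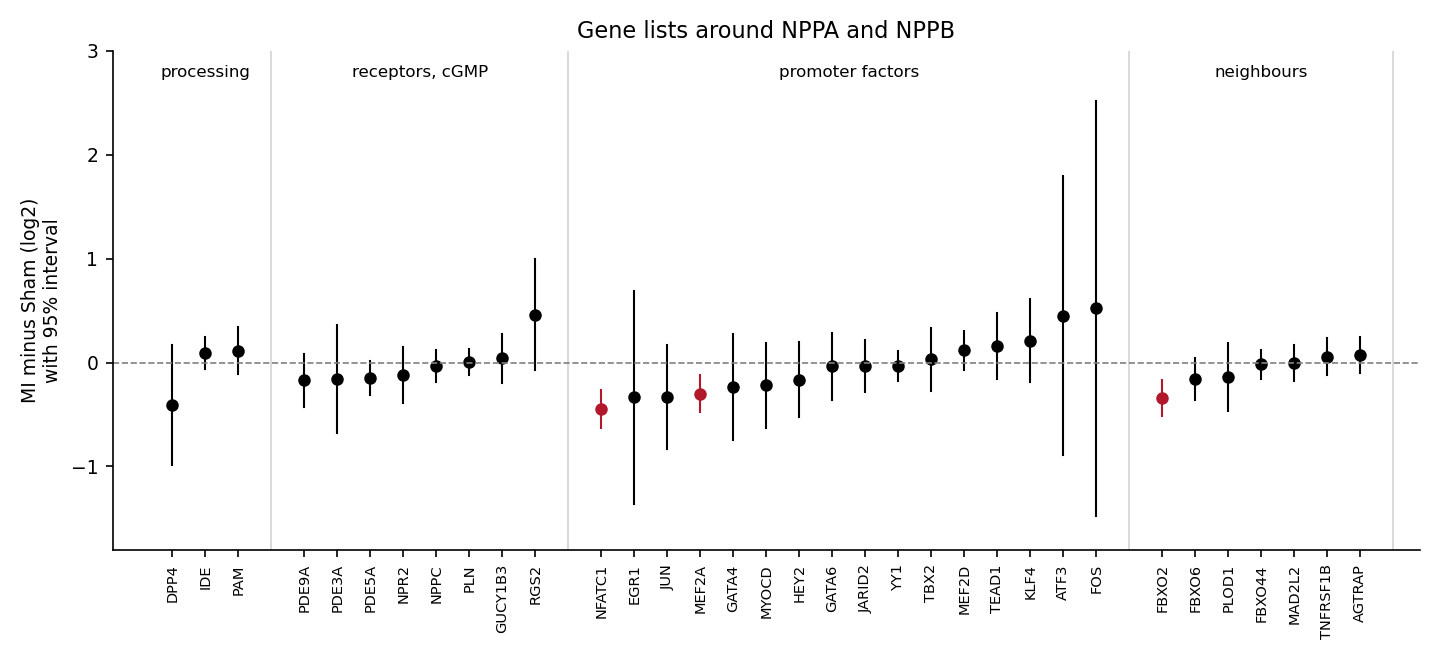
MI minus Sham difference in log2 signal with its 95% interval for the measured genes of the lists of peptide processing, receptors and cyclic GMP signalling, promoter factors and chromosomal neighbours, sorted within each list. NFATC1, MEF2A and FBXO2 (red) passed at an adjusted p under 0.05, all 3 lower in MI.

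Apart from the peptides, 23 of 31 listed genes of cardiac stress and the fetal programme were measured, and none passed in MI minus Sham (limma). An unadjusted p under 0.05 was found for 4 of the 23, where 23.6% of all probe sets had one. RCAN1, a calcineurin target and inhibitor, came closest with 0.55 (SE 0.17; adjusted p = 0.0538), from 9.86 to 11.42 in MI and from 9.54 to 10.26 in Sham. SLC2A1, a glucose transporter, differed by -0.34 (adjusted p = 0.107), FHL1, a stretch-responsive LIM protein, by 0.32 (adjusted p = 0.111) and MYL1, a skeletal and fetal myosin light chain, by 1.14 (adjusted p = 0.146). ANKRD1, another stretch-responsive gene, read 13.68 ± 0.30 (SD, n = 8) in MI and 13.68 ± 0.31 (SD, n = 8) in Sham. RCAN1 had a slope of 0.20 on NPPB and 0.0037 on NPPA. FHL1 had a slope of 0.17 on NPPB and 0.22 on NPPA, and no gene of the list passed on either peptide (limma).

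Of 12 atrial markers 7 were measured, and none passed in MI minus Sham (limma), their median difference being -0.01. Their summed signal, as log2 of the sum on the linear scale, ran from 10.35 to 10.87 in MI and from 10.37 to 10.96 in Sham. KCNJ3, MYL4 and DKK3 had positive slopes on NPPA at an unadjusted p under 0.05 (0.33, 0.45 and 0.57), and none passed (limma). Over all 23998 probe sets 1280 had such a slope. Of the other measured markers SLN and NR2F1 had slopes of 0.38 and 0.04, and NR2F2 and GJA5 both of -0.16. KCNJ3, an atrial potassium channel, differed by -0.32 between MI and Sham (adjusted p = 0.313), NR2F1 by -0.14 (adjusted p = 0.421), MYL4, the atrial essential light chain, by -0.20 (adjusted p = 0.567) and NR2F2 by 0.08 (adjusted p = 0.696). MYL7 was not analysed here, and the part of atrial tissue in the NPPA values was not tested.

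Of the ventricular markers none passed in MI minus Sham, and their summed signal ran from 17.20 to 17.31 in MI and from 17.23 to 17.31 in Sham. None of the 7 fibroblast, 7 endothelial, 6 smooth muscle and 3 mesothelial markers measured passed either (limma). Over all probe sets 5.39% rose and 5.14% fell, the shares beside which the next counts stand. Of blood and immune cell markers, 1 of 5 for macrophages (CD14), 3 of 8 for T and NK cells (CD3D, CD8B and CD247) and 2 of 4 for erythroid cells (HBM and AHSP) rose. Among the T, NK and erythroid markers that did not pass, CD3E, CD2, CD8A and HBB differed by -0.26, -0.08, -0.10 and -0.06. CD3G and ALAS2 differed by 0.13 and 0.59. Of 7 adipocyte markers PPARG rose and RETN fell, and of 3 nerve markers GFAP rose. RETN averaged 4.74 in MI and 5.01 in Sham, and AHSP 5.69 in MI and 4.85 in Sham. The mean of each thus exceeded background only in the group where it was higher. CD4 and NEFL, lower in MI, and ADIPOQ, higher in MI, also passed the test, but their means were below the background of 4.99 in both groups. The summed macrophage signal ran from 10.71 to 11.71 in MI and from 10.93 to 11.29 in Sham, the erythroid signal from 8.91 to 9.98 and from 8.75 to 9.38. On NPPA and on NPPB no marker of these lists passed, and the part of these cells in the values of the peptides was not tested.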

How the data were processed

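RNA from 16 pig left ventricles, 1 Affymetrix array each, was compared between MI and Sham. The authors deposited 1 log2 signal per probe set and array (log2 as judged from the values). The methods of background correction, summarisation and normalization were not given in the sources used here, although equal medians show that the arrays had been brought to one scale. No further scaling was applied. Of 24123 probe sets, 124 controls were left out, and 23999 were tested; 10069 had 1 gene symbol, 198 several and 13732 none. Symbols came from the platform annotation, updated through RefSeq (Sscrofa11.1), and a gene was represented by its probe set of highest mean.

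Differences were fitted with limma 3.58.1 in R 4.3.3, with 1 coefficient for each of the 4 combinations of operation and sex (12 residual degrees of freedom). MI minus Sham was the mean of the female and male differences. Each peptide was then fitted as a covariate beside these coefficients and the spike-in set (10 residual degrees of freedom). P-values are two-sided and adjusted by Benjamini-Hochberg over all probe sets, with 0.05 as threshold. Both fits were tested on simulated data. Permutation tests used scipy 1.17.1 in Python 3.11.15, exact or with 1e+05 resamples. The spike-in sets were formed at the widest gap in poly-A minus hybridisation control signal (set A -2.45 to -1.40, set B -4.83 to -3.77), which divides arrays and not labelled groups.

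The genes named were the peptides, the 12 genes of lowest p in each direction of each covariate fit among genes above background, and the listed genes that passed or else the 4 of lowest p in each list of peptide biology, stress and atrial markers. Other genes are mentioned for their role and were chosen with values in view. The members, lists and tests were chosen with earlier results of these data known. Alternatives were quantile normalization, median centring, the 16000 brightest probe sets, an offset of 32, trended robust variances, array weights, the spike-in set as a block or set A alone, the animal number as a block, ranks of the covariate, a threshold of 0.01, and leaving out each animal. Added after seeing the data were the omission of MI 7 with the set as a block, the actin value as covariate, and sex differences without MI 7. Precision is limited by the number of arrays. Nothing in the labels says whether the arrays came from 1 tissue piece or several per animal.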

Additional observations from a re-analysis of the deposited data

How the results depend on the processing

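The differences of NPPA and NPPB between MI and Sham over both sexes kept their direction and stayed short of the threshold in all alternatives. So did the MI minus Sham difference in females minus that in males. On leaving out 1 animal at a time, MI minus Sham ran from -0.46 to -0.15 for NPPA and from 0.62 to 1.05 for NPPB. The difference in females minus that in males then ran from 0.21 to 0.82 for NPPA and from -2.90 to -2.04 for NPPB. Under the replicate block it was 1.02 and -1.21. The NPPA difference in females, -0.04, turned positive with the animal number as replicate block (0.20), with a term for spike-in set (0.010), and in 3 of 16 omissions, which ran from -0.36 to 0.26 (without MI 1 0.09, without Sham 3 0.26, without Sham 5 0.0073). The NPPB difference in females turned to 0.21 under the replicate block. The NPPB difference in males passed with array weights (2.08, adjusted p = 0.0347) and without MI 6 (2.49, adjusted p = 0.0407); the omissions ran from 1.64 to 2.49 and their adjusted p from 0.0407 to 0.202. In these cases the cause was not tested.

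The NPPA and NPPB correlation was 0.51 after centring on group, sex and spike-in set, and -0.024 under the replicate block. Under that block, fitted with operation and spike-in set but without sex, 1 probe set followed NPPA. It was 1 of the 2 probe sets of DDX39B, an RNA helicase named here after its value was seen. The slope was 2.47 (limma, adjusted p = 0.000255), against 1.33 and 0.305 in the fit with sex and without the block. No probe set followed either peptide in the other alternatives. The slopes of the 48 nearest genes kept their sign, and none passed, in the 19 alternatives run for each, but 14 moved by over 1.5 times without the spike-in set term and 8 in set A alone. The animal numbers do not pair the animals by the labels, and the deviations of same-numbered animals correlated between -0.07 and 0.46, above 0.1 in 4 of 8 pairs; 2 of 8 MI animals correlated best with their own number.

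Of the listed genes, the NFATC1 call was kept in all 19 alternatives, FBXO2 lost it in set A alone (adjusted p = 0.0777) and MEF2A in 12 omissions. Averaging the probe sets of a gene could not be run as an alternative, since each peptide has 1.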
